A study of Mus musculus with 8 samples.

Results

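The planar cell polarity genes described here are Vangl1, Vangl2, Celsr1, Prickle1, Scrib, Dvl1, Dvl2, Dvl3, Ror2 and Daam1. They were found by matching the Ensembl gene identifiers of the deposited count table to these symbols, a match that uses no measured value. All 10 were among the 49315 genes listed, and all 10 passed the filter on low counts that left 16377 genes for testing.

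At embryonic day 9.5 the heart is a looping tube. Hearts of C57BL/6 mouse embryos of that age gave 4 Male and 4 Female libraries from whole-heart RNA. No embryo carried an engineered allele or received a treatment, per the labels. Each embryo was sexed by a test for Sry, which lies on the Y chromosome and directs testis development, on tissue from outside the heart. Whether hearts were pooled, and how embryos fall into litters, is not in the labels; the tests below therefore measure how far these libraries vary, which may be technical in part.

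Planar cell polarity is the alignment of cells within the plane of a tissue. In the core system, transmembrane Vangl and cytoplasmic Prickle take up the side of a cell opposite to cytoplasmic Dishevelled (Dvl). Contacts of the transmembrane protein Celsr pass the polarity to neighbouring cells. Non-canonical Wnt ligands act through Frizzled and Ror receptors, Dishevelled and the formin Daam1 on the actin cytoskeleton. In mice, loss of Vangl2 or of Dishevelled genes causes malformations of the outflow tract, which is built from second heart field cells added to the heart tube at about this stage.

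Counts assigned to genes totalled 21778953 to 39773169 in Male libraries and 20105913 to 51134291 in Female libraries. Levels are CPM, each count relative to the library's summed counts, with library sizes scaled by TMM factors, which correct for differences in composition. The labels were checked with sex-linked genes. Xist, the RNA of the inactive X chromosome, had 0.340 to 0.612 CPM in Male libraries and 225 to 277 CPM in Female libraries, and neither Ddx3y nor Eif2s3y had more than 7 counts in any Female library. Male replicate 2 stood apart from the other 7 libraries. It scored -59.5 on the first principal component, which held 62.0% of the variance, against -15.0 to 34.96 for the others. Its TMM factor was 0.864 and mitochondrial genes took 0.707% of its counts, the lowest share, against 1.72% in Female replicate 4, the highest. Genes of at most 1500 bases lay a median of 0.29 above their mean on the log2 scale in Male replicate 2 and -0.23 from it in Female replicate 4. Results that rest on Male replicate 2 are given with and without it.

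Promoter windows of 7 of the 10 genes were read from RefSeq (GRCm38.p6), and 3 of these are printed: Vangl2, and Dvl1 and Ror2, a pair of the genes whose levels had a negative r with it across the 8 libraries, as described further on. Each is the 250 bases before the RefSeq start, 5′ to 3′ on the gene's strand, with GC boxes (GGGCGG or CCGCCC, so both strands are read, overlaps counted) in capitals. The Vangl2 window is chr1:172027296-172027545 on the minus strand, inside the deposited gene, whose start lies 1149 bases upstream of the RefSeq start. The Dvl1 window is chr4:155847152-155847401 on the plus strand and the Ror2 window is chr13:53286125-53286374 on the minus strand, and both end at the deposited gene start.
Vangl2: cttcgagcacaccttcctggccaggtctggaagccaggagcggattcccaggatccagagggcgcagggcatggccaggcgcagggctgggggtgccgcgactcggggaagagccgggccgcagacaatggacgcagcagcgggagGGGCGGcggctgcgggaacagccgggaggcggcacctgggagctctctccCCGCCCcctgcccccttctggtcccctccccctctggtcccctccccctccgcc
Dvl1: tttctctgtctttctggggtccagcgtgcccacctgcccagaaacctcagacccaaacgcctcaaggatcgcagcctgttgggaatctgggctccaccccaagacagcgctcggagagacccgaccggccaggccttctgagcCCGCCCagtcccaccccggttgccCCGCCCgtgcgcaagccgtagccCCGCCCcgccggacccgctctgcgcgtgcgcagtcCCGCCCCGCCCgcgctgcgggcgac
Ror2: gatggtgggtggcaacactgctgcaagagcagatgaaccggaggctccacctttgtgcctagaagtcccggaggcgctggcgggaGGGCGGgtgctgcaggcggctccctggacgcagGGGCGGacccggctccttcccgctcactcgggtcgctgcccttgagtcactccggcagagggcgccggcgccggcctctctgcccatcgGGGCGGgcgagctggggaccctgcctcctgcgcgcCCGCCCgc
The windows held 2 GC boxes for Vangl2, 5 for Dvl1 and 4 for Ror2. The first windows of Prickle1, Dvl2, Dvl3 and Daam1 held 3 or 4. A further window of Prickle1 held 2 (60.8% G and C), and a further window of Daam1 held 0 (52.8% G and C). At least 1 GC box was found in 32.9% of all 27025 windows of this length. No CCAAT box (CCAAT or ATTGG) lay in the 3 printed windows, against 34.5% of all windows with one. The first window of Prickle1 and the further window of Daam1 each held 1. G and C made up 73.6% of the Vangl2 window, 71.2% of the Dvl1 window and 73.2% of the Ror2 window, against a median of 52.0% over all windows. Such matches describe letters and do not show binding.

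The first comparison, male minus female, is the one the study was designed for. No planar cell polarity gene passed the test between Male and Female hearts. The levels of the groups overlapped for all 10 genes. The log2 fold changes ran from -0.04 for Ror2 to 0.23 for Dvl3, with 6 above 0 and 4 below. None passed edgeR's quasi-likelihood test with Benjamini-Hochberg adjustment over all genes (adjusted p = 0.9995 for each), none had an unadjusted p below 0.05, and DESeq2 called none (adjusted p = 0.9988 for each). Of all 16377 genes tested, edgeR called 0.0366% (0.0305% higher and 0.00611% lower in Male hearts) and gave 2.24% an unadjusted p below 0.05. DESeq2 called 0.0301% of 29917 genes and gave 1.93% an unadjusted p below 0.05. Male and Female levels did not overlap for 2.25% of the 16377 genes (1.14% higher and 1.11% lower in Male hearts), and 52.9% had a log2 fold change above 0. The median log2 fold change was 0.04 over the 10 genes and 0.01 over all genes.

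Vangl1 and Vangl2 are multi-pass membrane proteins of the core complex. Vangl1 (chr3:102153583-102204693, minus strand) had 40.6, 38.1, 36.6 and 35.8 CPM in Male libraries 1 to 4, against 32.7, 36.1, 37.5 and 36.1 CPM in Female libraries 1 to 4. The Male and Female values interleave, with a log2 fold change of 0.09 ± 0.08 (SE). Vangl2 (chr1:172000960-172028444, minus strand) had 40.2, 58.4, 35.2 and 40.1 CPM in Male libraries, against 43.8, 40.6, 38.6 and 34.1 CPM in Female libraries. Male replicate 2 was far above the other 7 libraries, which lay close together. The log2 fold change was 0.15 ± 0.16 (SE) with all libraries and -0.03 without Male replicate 2.

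Celsr1 (chr15:85898758-86033777, minus strand) encodes a large cadherin whose contacts between cells carry the polarity signal. It had 21.0, 12.7, 19.7 and 19.4 CPM in Male libraries, against 15.1, 16.6, 15.6 and 21.0 CPM in Female libraries. Male replicate 2 was the lowest library and the other 3 Male libraries lay above 3 of the 4 Female libraries. The log2 fold change was 0.09 ± 0.17 (SE), and it was 0.23 without Male replicate 2 and 0.21 without Female replicate 4. Prickle1 (chr15:93499114-93595891, minus strand) encodes a LIM-domain protein that binds Vangl. It had 56.9, 56.7, 52.7 and 57.8 CPM in Male libraries, against 57.9, 51.2, 56.0 and 55.0 CPM in Female libraries. No library stood apart, and the log2 fold change was 0.03 ± 0.07 (SE). Scrib (chr15:76047158-76069784, minus strand), a scaffold of the basolateral membrane that binds Vangl2, had 102, 67.3, 88.6 and 87.5 CPM in Male libraries, against 88.8, 84.6, 86.8 and 94.8 CPM in Female libraries. The extremes were both Male, with the highest level in replicate 1 and the lowest in replicate 2. The log2 fold change was -0.04 ± 0.12 (SE), and 0.06 without Male replicate 2.

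The 3 Dishevelled proteins carry the signal from Frizzled receptors, both in planar polarity and in the beta-catenin branch of Wnt signalling. Dvl1 (chr4:155847402-155859303, plus strand) varied most of the 10 genes. It had 33.4, 16.7, 36.3 and 27.7 CPM in Male libraries, against 24.5, 25.2, 27.2 and 37.7 CPM in Female libraries. The lowest library was Male replicate 2 and the highest Female replicate 4, a 2.26-fold span. The log2 fold change was -0.01 ± 0.24 (SE), and it was 0.18 without Male replicate 2 and 0.15 without Female replicate 4.

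Dvl2 (chr11:70000595-70012301, plus strand) was the steadiest gene, with 44.8, 42.6, 45.6 and 41.6 CPM in Male libraries, against 41.9, 45.7, 43.5 and 45.2 CPM in Female libraries. Its log2 fold change was -0.01 ± 0.07 (SE). Of its exonic length, 19.7% is shared with other genes, mainly Acadvl on the opposite strand, which averaged 1261 counts per library beside 1528 for Dvl2. No source used here gives the strand setting of the counting, so the shared bases may raise or lower the Dvl2 count. Their effect was not tested. Dvl3 (chr16:20516982-20532520, plus strand) had 26.5, 20.9, 22.3 and 21.6 CPM in Male libraries, against 17.0, 16.3, 17.8 and 26.4 CPM in Female libraries. All 4 Male libraries exceeded 3 of the Female libraries, while Female replicate 4 lay just below the highest Male library. The log2 fold change of 0.23 ± 0.16 (SE) was the largest of the 10 and had the smallest unadjusted p, 0.189 by edgeR's quasi-likelihood test. Without Female replicate 4 it was 0.42, with an adjusted p of 0.9999 by the same test (0.835 to 0.9999 over the settings tried).

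Ror2 (chr13:53109312-53286124, minus strand) encodes a receptor tyrosine kinase for Wnt5a. It had 50.7, 30.2, 48.7 and 45.5 CPM in Male libraries, against 41.2, 47.2, 38.1 and 53.8 CPM in Female libraries. Male replicate 2 was again the lowest library and Female replicate 4 the highest. The log2 fold change was -0.04 ± 0.17 (SE), and 0.09 without Male replicate 2. Daam1 (chr12:71831078-71992367, plus strand) encodes the formin that links Dishevelled to actin assembly. It had 76.2, 65.7, 79.2 and 72.3 CPM in Male libraries, against 64.9, 71.3, 68.5 and 79.2 CPM in Female libraries. The highest Male and the highest Female library were level, and the log2 fold change was 0.05 ± 0.09 (SE).

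**Figure D1:**
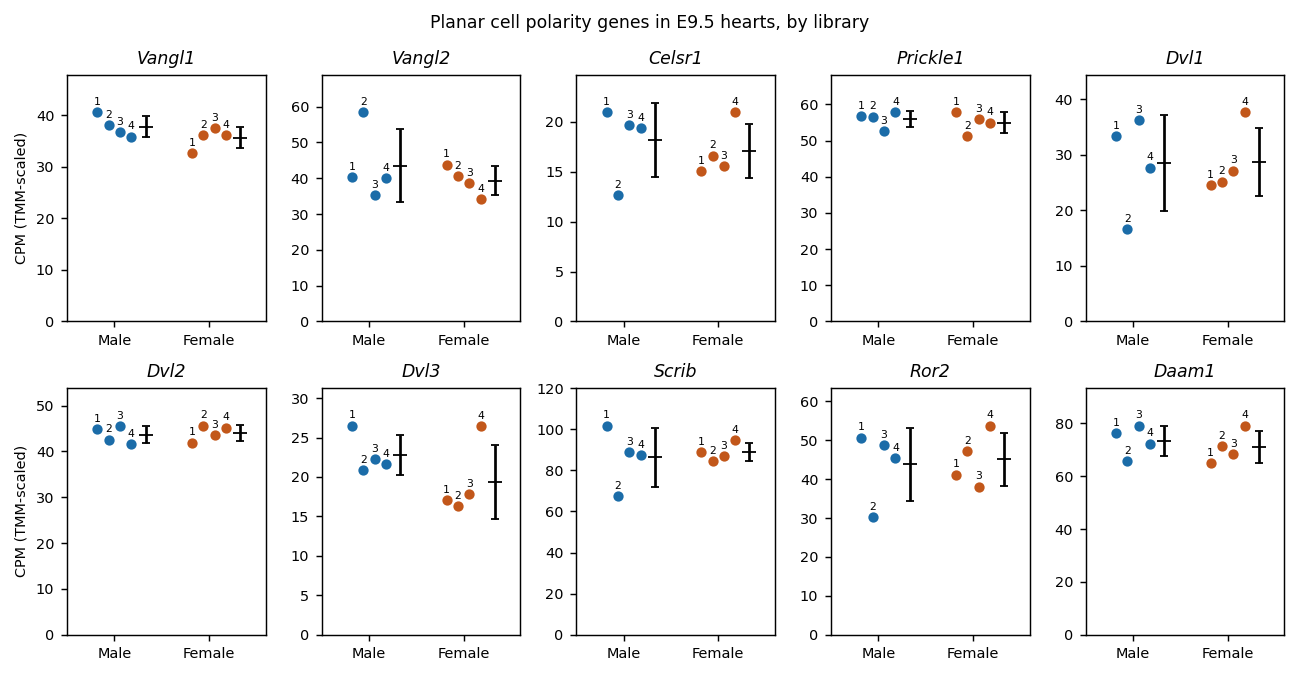
Level of each of the 10 genes in CPM scaled by TMM factors (vertical axes, from 0) in 4 Male libraries (blue, left) and 4 Female libraries (orange, right), numbered by replicate, with the mean ± SD of each group. The groups overlap in every panel; Male replicate 2 is the highest library for Vangl2 at 58.4 CPM and the lowest for Dvl1 at 16.7 CPM.

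Relative to its mean, the spread over the 8 libraries was widest for Dvl1, with a coefficient of variation of 24.3%, and narrowest for Dvl2 at 3.83%, Prickle1 at 4.39% and Vangl1 at 6.11%. The median was 14.2% over the 10 genes and 16.4% over all genes tested. The coefficient of variation of Dvl2 was larger than that of only 0.916% of tested genes and that of Prickle1 of 1.70%. Without TMM factors, with library size alone, the coefficient was 8.63% for Dvl2 and 7.23% for Prickle1, so how steady these genes look depends on the scaling.

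Of a wider list of 61 further genes of the pathway, 58 were tested and none was called by edgeR's quasi-likelihood test or by DESeq2, with 27 log2 fold changes above 0 and 31 below. The median log2 fold change was -0.01, against 0.01 over all genes. The 1 gene with an unadjusted edgeR p below 0.05 was Celsr3, a neuronal relative of Celsr1, with 0.717 ± 0.183 CPM in Male libraries and 0.454 ± 0.063 CPM in Female libraries (SD, n = 4 each). Its log2 fold change was 0.66 ± 0.28 (SE) on 10 to 24 counts per library, and its adjusted p was 0.9995 by edgeR's quasi-likelihood test, from an unadjusted 0.0399. Celsr2 had 9.72 ± 2.01 CPM in Male and 7.79 ± 0.79 CPM in Female libraries (SD, n = 4 each), with a log2 fold change of 0.32 ± 0.16 (SE) that did not pass the test.

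**Figure D2:**
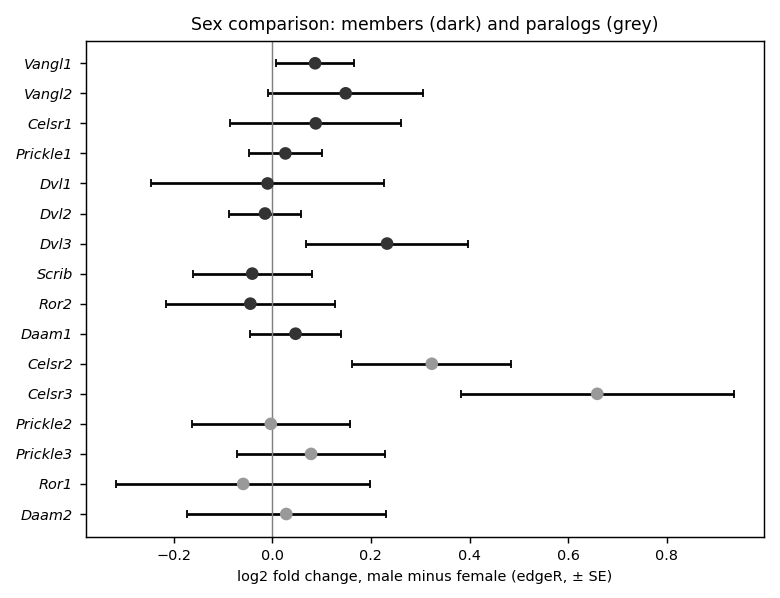
Log2 fold change, male minus female, for the 10 genes (dark points) and the 6 of their paralogs that were tested (grey points). The horizontal axis gives it with a standard error derived from edgeR's quasi-likelihood F statistic. The 10 genes lie between -0.04 and 0.23, and the paralog farthest from 0 is Celsr3 at 0.66; none of these differences passed the test.

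The other role groups gave the same count of 0 calls. Among 5 Wnt ligands tested, 3 had a log2 fold change above 0 and 2 below, with a median of 0.08. The most abundant per kilobase were Wnt11, a ligand of non-canonical signalling in the outflow tract, with 42.4 ± 11.2 CPM in Male and 44.3 ± 4.39 CPM in Female libraries, and Wnt4, with 35.4 ± 15.3 CPM in Male and 29.6 ± 6.47 CPM in Female libraries (SD, n = 4 each). Of 10 receptors and co-receptors, 4 lay above 0 and 6 below, with a median of -0.15. The glypican Gpc3, which binds Wnt proteins at the cell surface, had 600 ± 72.9 CPM in Male and 589 ± 47.1 CPM in Female libraries, and the receptor Fzd2 had 119 ± 7.27 CPM in Male and 116 ± 3.99 CPM in Female libraries (SD, n = 4 each).

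Of 13 cytoplasmic regulators, 3 lay above 0 and 10 below, with a median log2 fold change of -0.05. Gipc1, an adaptor that binds Vangl2, had 142 ± 5.26 CPM in Male and 138 ± 9.18 CPM in Female libraries (SD, n = 4 each). Of 15 small GTPases, kinases and actomyosin effectors, 7 lay above 0 and 8 below, with a median of -0.07. The actin-severing protein gene Cfl1 had 1062 ± 164 CPM in Male and 1155 ± 47.5 CPM in Female libraries (SD, n = 4 each). The 5 ciliary planar polarity effectors were split 3 above and 2 below, and the 4 tested genes of the Fat and Dachsous system 3 above and 1 below. Fat1, a giant cadherin of that system, had 60.7 ± 19.1 CPM in Male and 57.9 ± 9.01 CPM in Female libraries (SD, n = 4 each). Prickle4, Wnt7b and Dchs2 had too few counts to be tested.

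The second comparison ranks the genes by level over the 8 libraries taken as one set. Levels of different genes were compared as CPM per kilobase of the exonic length in the deposited table, since a longer transcript gives more reads. Scrib was the most abundant, with 15.3 ± 1.72 CPM per kilobase (SD, n = 8). Prickle1 followed with 12.8 ± 0.56, Daam1 with 12.02 ± 0.94 and Ror2 with 10.5 ± 1.79 CPM per kilobase. Below these came Dvl2 with 6.96 ± 0.27, Vangl2 with 5.92 ± 1.08, Dvl1 with 5.72 ± 1.39, Vangl1 with 5.12 ± 0.31 and Dvl3 with 4.31 ± 0.81 CPM per kilobase. Celsr1 was the lowest, with 1.59 ± 0.28 CPM per kilobase. Its transcript is also the longest of the 10, at 11050 exonic bases. The median level of the 10 genes was 6.44 CPM per kilobase, against 3.498 over all genes tested, and they ran from the 35.5th percentile of tested genes (Celsr1) to the 79.5th (Scrib).

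Neighbours in this order and paralogs were compared within each library by an exact 2-sided sign-flip permutation test over the 8 libraries, with adjustment over the 20 comparisons run, of which 16 passed 0.05. Adjacent genes that did not differ beyond their spread were Prickle1 and Daam1 (log2 ratio 0.09, adjusted p = 0.148 by the exact test), Vangl2 and Dvl1 (0.06, adjusted p = 0.805 by the exact test) and Dvl1 and Vangl1 (0.13, adjusted p = 0.345 by the exact test). Scrib exceeded Prickle1 in 7 of 8 libraries by 0.24 on the log2 scale (adjusted p = 0.026, exact test), the exception being Male replicate 2. The wide steps in the order were that of Ror2 above Dvl2, a log2 ratio of 0.57, and that of Dvl3 above Celsr1, a log2 ratio of 1.42, both in 8 of 8 libraries (adjusted p = 0.0142, exact test, from the smallest p that the test can give). Without the correction for length the log2 ratio of Ror2 to Dvl2 was -0.000635 (adjusted p = 1.0, exact test), so that step rests on the gene lengths. The count that passed was 11 to 15 when 1 library was left out, and the calls of Scrib over Prickle1, Dvl2 over Vangl2 and Vangl1 over Dvl3 were among those lost.

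Within the families, the Vangl genes were close to equal. Vangl2 made up 53.6% ± 5.26 of the summed Vangl level per kilobase in Male libraries and 53.0% ± 3.70 in Female libraries (SD, n = 4 each). Its share was highest, 61.1%, in Male replicate 2. The log2 ratio of Vangl2 to Vangl1 was 0.19 and did not pass the test (adjusted p = 0.0643, exact permutation test). Among the Dishevelled genes the order was Dvl2, Dvl1, Dvl3. Dvl2 held 40.5% ± 4.55 of the summed level in Male and 42.4% ± 4.67 in Female libraries, Dvl1 held 32.4% ± 6.41 in Male and 34.1% ± 2.39 in Female libraries, and Dvl3 held 27.1% ± 2.48 in Male and 23.5% ± 2.34 in Female libraries (SD, n = 4 each). Each step passed the test with all 8 libraries: Dvl2 over Dvl1 by a log2 ratio of 0.31 (adjusted p = 0.0488, exact test) and Dvl1 over Dvl3 by 0.38 (adjusted p = 0.0446, exact test). The call of Dvl2 over Dvl1 was lost without any 1 of 6 libraries, and that of Dvl1 over Dvl3 without any 1 of 7 (adjusted p up to 0.0977 and 0.0893, exact test). The exonic overlap of Dvl2 with Acadvl bears on the first step, and its effect on the Dvl2 count was not tested. In Male replicate 2, Dvl1 lay below Dvl3, with 23.3% of the sum for Dvl1.

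The other families were dominated by 1 gene. Ror2 held 94.9% ± 1.32 of the Ror level in Male and 95.02% ± 0.83 in Female libraries, and Prickle1 held 85.3% ± 2.09 of the Prickle level in Male and 85.4% ± 2.08 in Female libraries (SD, n = 4 each). Daam1 held 79.1% ± 2.99 of the Daam level in Male and 78.9% ± 2.16 in Female libraries, with Daam2 as the remainder (SD, n = 4 each). Celsr1 held 64.1% ± 8.89 of the Celsr level in Male and 68.1% ± 5.03 in Female libraries, Celsr2 most of the rest and Celsr3 at most 2.95% in any library (SD, n = 4 each). As log2 ratios per kilobase, Ror2 exceeded Ror1 by 4.05, Prickle1 exceeded Prickle3 by 3.27 and Prickle2 by 3.71, Daam1 exceeded Daam2 by 1.89, and Celsr1 exceeded Celsr2 by 1.03 and Celsr3 by 4.19. Each of these held in 8 of 8 libraries with an adjusted p of 0.0142 by the exact test. The 0.5 CPM added before logs is close to the level of Celsr3 itself, 0.383 to 0.884 CPM. The log2 ratio of Celsr1 to Celsr3 is therefore understated, with mean levels of 1.59 and 0.0485 CPM per kilobase. Prickle4 had 0 to 3 counts per library, so its log2 ratio rests largely on the 0.5 CPM added and is not given. The comparison of Prickle1 with Prickle4 is still counted among those run and those that passed.

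**Figure D3:**
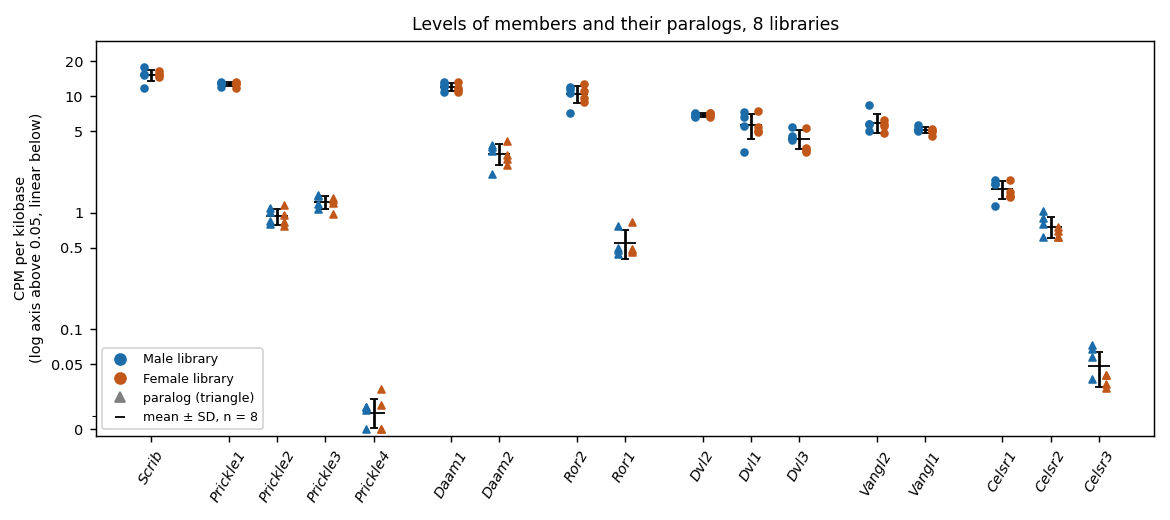
Level of the 10 genes (circles) and their paralogs (triangles) in CPM per kilobase of exonic length (vertical axis, log above 0.05 and linear below), by family, with Male libraries blue and Female libraries orange and the mean ± SD of all 8 as black bars. By mean level, Scrib is highest at 15.3 and the Dvl and Vangl genes lie between 4.31 and 6.96. Ror2, Prickle1 and Daam1 lie well above their paralogs.

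The third comparison asks which of the genes moved together over the 8 libraries, sex aside. In bulk hearts, fewer cells of a type and less RNA per cell cannot be told apart. Celsr1, Dvl1, Ror2 and Daam1 tended to be high and low in the same libraries, and each had a negative r with Vangl2. Scrib had a positive r with Celsr1, Dvl1 and Ror2 that passed the test; with Daam1 (r = 0.62, adjusted p = 0.196) and with Vangl2 (r = -0.80, adjusted p = 0.135) it did not pass the exact permutation test. Of the 45 pairs, 14 passed an adjusted p below 0.05 by the exact permutation test of Pearson's r, 9 with a positive and 5 with a negative r. Dvl1, which had 16.7 CPM in Male replicate 2, and Vangl2, which stood at 58.4 CPM there, had r = -0.94 and rho = -0.90 (n = 8, exact permutation p = 0.000893, adjusted p = 0.0164 for r and 0.0411 for rho). Ror2 and Celsr1 had r = 0.93 and rho = 0.93 (exact permutation p = 0.000843, adjusted p = 0.0164 for r and 0.0411 for rho).

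Male replicate 2 and Female replicate 4 lay at opposite ends of this pattern. Without both, the 2 libraries farthest from the Vangl2 median, r of Vangl2 with Dvl1 was -0.77 (exact permutation p = 0.0528) and of Vangl2 with Ror2 it was -0.28 (exact permutation p = 0.611), against -0.86 with all 8. The relation of Vangl2 to Ror2 therefore rests on those libraries, as do those of Vangl2 to Celsr1 (r = -0.82 with 8 libraries, -0.47 without 2) and Dvl1 to Scrib (0.87 and 0.55). The relation of Scrib to Ror2, at r = 0.87, was 0.55 without Male replicates 1 and 2, the libraries farthest from the Scrib median. Vangl2 to Daam1 had r = -0.76 with 8 libraries and -0.76 without Male replicate 2 and Female replicate 4 (exact permutation p = 0.0792). Dvl1 to Daam1 (r = 0.88 with 8 libraries) had r = 0.91 without the same 2 libraries (exact permutation p = 0.0125). Celsr1 to Ror2 had r = 0.85 without Male replicate 2 and Female replicate 1 (exact permutation p = 0.0167). After adjustment over the 45 pairs, none of the 14 passed without Male replicate 2 alone or without Female replicate 4 alone, with 7 libraries left. Without Female replicate 3, 11 pairs passed, and without any 1 of the other 5 libraries, 7 or 8 did. Taken as deviations from the mean of each sex, 14 pairs passed, and by rank correlation 5 did. With library size alone as the scaling, more than 14 pairs passed, so the count depends on the TMM factors. That count is given with the other processing settings at the end.

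**Figure D4:**
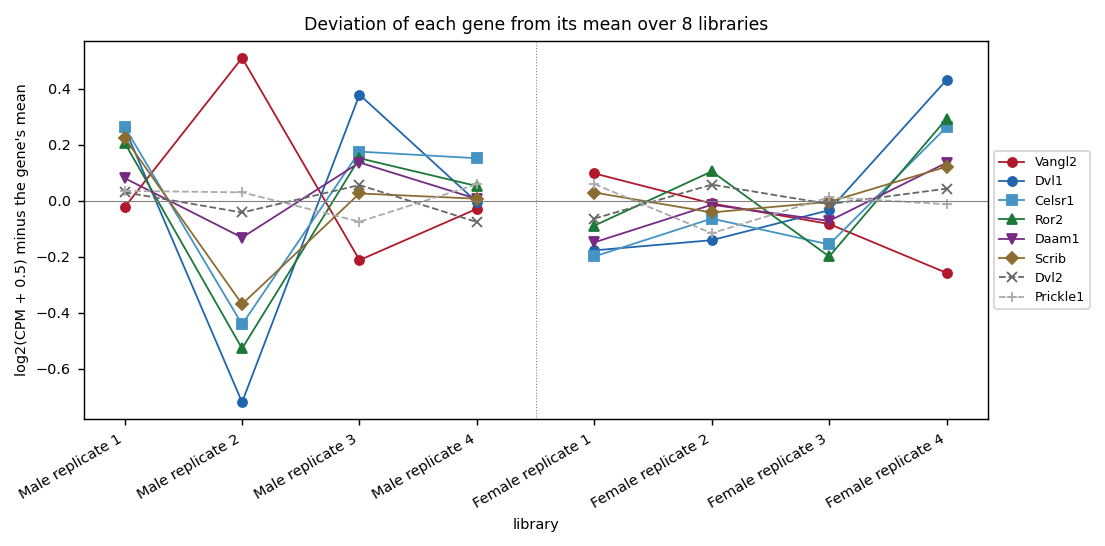
Deviation of log2(CPM + 0.5) from the gene's mean over 8 libraries (vertical axis) for 8 of the genes in each Male and Female library (horizontal axis); lines only join the points of a gene. In Male replicate 2 Vangl2 lies highest and Dvl1 lowest, in Female replicate 4 the order is the opposite, and Dvl2 and Prickle1 (dashed) stay near 0.

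Dvl2 and Prickle1, the steadiest genes, were opposed to each other, with r = -0.82 and rho = -0.90 (n = 8, exact permutation p = 0.00903, adjusted p = 0.0353 for r and 0.0411 for rho). The range behind this value is 41.6 to 45.7 CPM for Dvl2 and 51.2 to 57.9 CPM for Prickle1. With library size alone as the scaling the sign turned, to r = 0.54, and with TMM factors it was -0.27 relative to genes of the same length class (adjusted p = 0.606 by the exact permutation test), so the relation depends on the processing. Vangl1 and Dvl3 were in none of the 14 pairs.

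**Figure D5:**
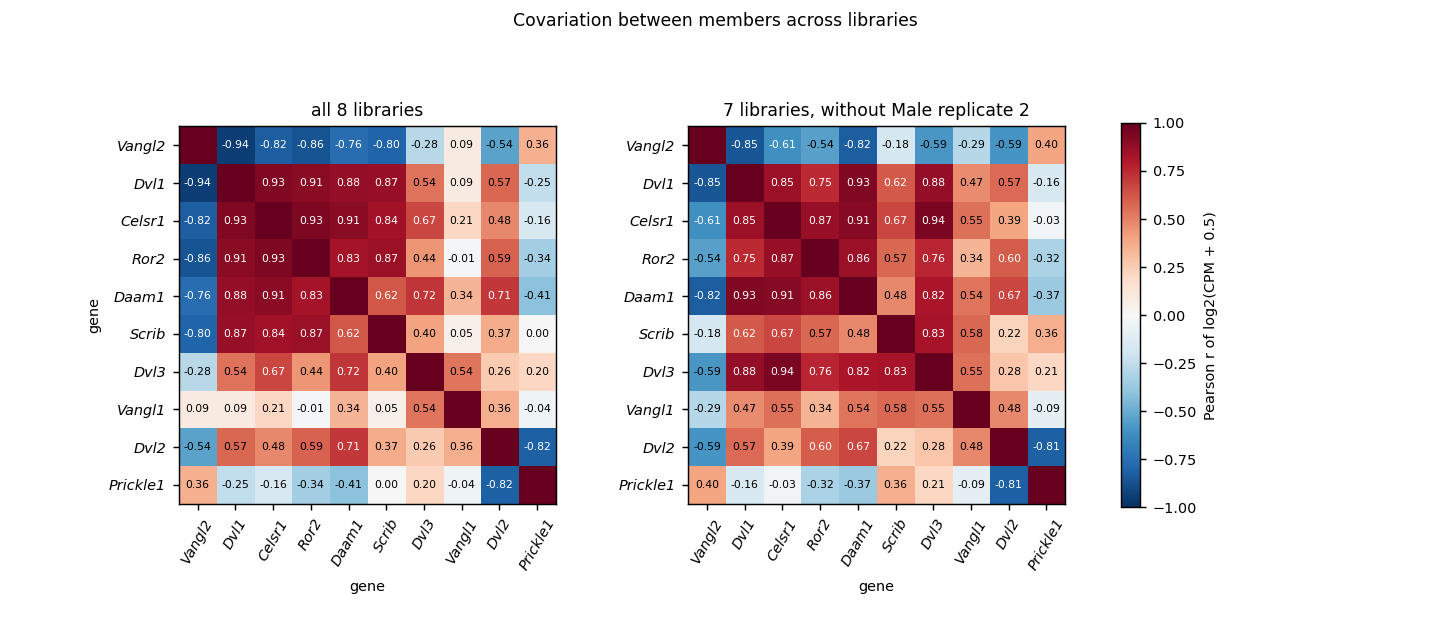
Pearson's r of log2(CPM + 0.5) between each pair of the 10 genes over all 8 libraries (left) and over the 7 libraries without Male replicate 2 (right), with the colour scale from -1 to 1. On the left, Celsr1, Dvl1, Ror2 and Daam1 form a positive block with a negative r to Vangl2, from -0.76 to -0.94; without Male replicate 2, r of Vangl2 with Scrib is -0.18 and with Dvl1 -0.85.

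Covariation of this strength was common among all genes. Of the 16377 tested genes, 39.6% had an r of at least 0.8 in size with Dvl1, 38.7% with Ror2, 37.9% with Vangl2, 32.2% with Celsr1, 27.3% with Scrib and 24.1% with Daam1. The share was 2.44% with Dvl2, 2.37% with Dvl3, 1.12% with Vangl1 and 0.672% with Prickle1. Covariation of this strength was thus not particular to these genes. Gene length moved with the libraries. Male replicate 2 lay a median of -0.10 from the mean, on the log2 scale, over genes longer than 5000 and up to 8000 bases, and Female replicate 4 lay at 0.08. Relative to genes of the same length class, a setting chosen after the data were seen, 5 pairs passed. Among them were Vangl2 with Dvl1 at r = -0.95 and Celsr1 with Ror2 at r = 0.93. In this setting no pair with Daam1 or Scrib passed. Daam1 had r = -0.54 with Vangl2, 0.65 with Dvl1, 0.57 with Ror2 and 0.73 with Celsr1 (adjusted p = 0.212 to 0.350 by the exact permutation test).

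Markers of heart cells and of neighbouring tissues were set beside the 10 genes in the same way. Each list was read as the mean log2 level of its markers. Cardiomyocytes, endothelium and endocardium are cells of the heart itself. Lists for neural crest, neural tube, proepicardium, liver bud and yolk sac, and primitive erythroid cells were not compared with the 10 genes. Liver bud and yolk sac markers summed to 1.09 to 27.3 CPM in Male and 0.640 to 70.0 CPM in Female libraries. Proepicardial markers summed to 64.2 to 129 CPM in Male and 56.4 to 105 CPM in Female libraries. Of 40 relations to 4 lists, 14 passed an adjusted p below 0.05 by the exact permutation test. Such relations were common among all genes. An r of at least 0.8 in size was found in 5 of the 10 genes and 35.2% of all tested genes with the endothelial and endocardial list, in 4 and 34.8% with the cardiomyocyte list, in 3 and 15.9% with the second heart field list, and in 2 and 6.45% with the foregut list (list genes left out of the percentages). Daam1, Dvl1, Celsr1 and Ror2 had a positive r with the mean of the endothelial and endocardial markers, and Vangl2 a negative one. Daam1 had r = 0.97 and rho = 0.93 with this list of 7 genes, which includes Pecam1, Cdh5 and Tie1 (n = 8, exact permutation p = 0.000347, adjusted p = 0.00694 for r and 0.0298 for rho). Without Male replicate 2 and Female replicate 4, r was 0.99 (exact permutation p = 0.00417), and this was the 1 relation that passed without Male replicate 2, with an adjusted p of 0.0317 by the exact test (0.000496 to 0.0317 over the settings tried). Without Male replicate 3, 4 relations passed, and without Female replicate 3, 6 did. Ror2 had r = 0.92, Celsr1 r = 0.93, Dvl1 r = 0.93 and Vangl2 r = -0.85 with the same list, each past the adjusted threshold by the exact permutation test. The summed level of the list was 398 to 524 CPM in Male libraries and 433 to 554 CPM in Female libraries. The markers did not all move alike. In Male replicate 2, Cdh5 was lowest of all libraries at 48.2 CPM, while Emcn had 42.8 CPM there, near its highest value of 43.6 CPM.

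With cardiomyocyte markers the signs were the opposite. Vangl2 had r = 0.91, Dvl1 r = -0.90 and Ror2 r = -0.85 (adjusted p = 0.0332, 0.0303 and 0.0392 by the exact permutation test). Without Male replicate 2 and Female replicate 4 the values were 0.31, -0.50 and -0.20, so these relations rest on those libraries. The 8 cardiomyocyte markers summed to 25886 to 44795 CPM in Male libraries, with the maximum in replicate 2, and to 22887 to 29765 CPM in Female libraries, with the minimum in replicate 4. With second heart field markers such as Isl1 and Tbx1, Vangl2 had r = 0.79, Celsr1 -0.89, Dvl1 -0.83 and Daam1 -0.85. With foregut epithelium markers such as Epcam, Celsr1 had r = -0.80 and Daam1 -0.83. The adjusted p of these 6 relations was 0.0197 to 0.0437 by the exact permutation test, and none passed without Male replicate 2. Second heart field markers summed to 31.4 to 86.7 CPM in Male and 39.0 to 74.3 CPM in Female libraries, and foregut markers to 149 to 362 CPM in Male and 156 to 308 CPM in Female libraries. Most of the foregut sum was Krt8, with 142 to 311 CPM in Male and 143 to 251 CPM in Female libraries. Epcam had 1.601 to 12.5 CPM in Male and 2.58 to 18.3 CPM in Female libraries, and 5 of the 12 foregut markers averaged below 1 CPM. No marker of any list was at 0 in all libraries. Whether the marker levels have a part in the covariation of the 10 genes was not tested.

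For each gene, the pair of genes nearest to it in profile was found by Pearson's r of log2(CPM + 0.5) over the 8 libraries, among 9024 candidates with a mean of at least 10 CPM. The nearest to Vangl2 were Tcf7l1 (r = 0.99) and Flt1 (r = 0.99), a Vegf receptor gene of endothelium outside the endothelial list, while that list's mean had r = -0.85 with Vangl2, and the nearest to Dvl1 were Slc43a3 (r = 0.997) and Msrb2 (r = 0.99). Celsr1 was nearest to Slc45a4 (r = 0.99) and Nhsl1 (r = 0.99), Ror2 to Usp28 (r = 0.99) and Phtf1 (r = 0.99), Daam1 to Slfn9 (r = 0.99) and Gpr153 (r = 0.99), and Scrib to Anks1 (r = 0.98) and Numa1 (r = 0.98). Vangl1 was nearest to Mast3 (r = 0.99) and Nfkb2 (r = 0.95), and Dvl3 to Furin (r = 0.96) and Dlg5 (r = 0.96). Dvl2 was nearest to Vps11 (r = 0.95) and Sec63 (r = 0.93), and Prickle1 to Asxl2 (r = 0.89) and Mtg2 (r = 0.86). These are the largest of many values, taken over the same libraries. Among the candidates, 1323 had r above 0.9 with Dvl1, 1239 with Ror2 and 1092 with Vangl2, against 12 with Vangl1 and 0 with Prickle1.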

How the data were processed

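RNA sequencing gave 4 Male and 4 Female libraries, made with an Illumina TruSeq kit from Trizol RNA, per the labels' protocols. The deposited values are raw counts per gene, with no normalization. They come from GRCm38 (mm10), Trimmomatic 0.36, STAR 2.5.2b and Subread 1.5.2 (featureCounts), per the submitters' processing notes. No source used here gives the annotation release, the strand setting or how multiply mapped reads were counted. The table of the whole series equals the tables per library in all 394520 cells. A deposited normalized table was not used.

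Male and Female libraries were compared with edgeR 4.0.16 in R 4.3.3 (filterByExpr, minimum count 10, TMM, robust quasi-likelihood, 2-sided, no covariate, Benjamini-Hochberg over 16377 genes). The SE given with a log2 fold change is its size divided by the square root of edgeR's quasi-likelihood F statistic. DESeq2 1.42.0 was an alternative. CPM is TMM-scaled; 0.5 CPM was added before logs. Ratios were tested over 256 sign flips and correlations over 40320 pairings with Python 3.11.15. Tests were checked on simulated data. Replicate pairs within a sex differed by 7.96 to 198 in chi-square per gene, more than sampling noise between repeat counts of the same library would give. The check cannot tell whether libraries share an RNA sample or a heart, since such libraries can also differ beyond sampling noise. The 10 genes, the wider list and the markers were chosen with earlier results of these data known. Named genes are the 10, their paralogs, the 2 most abundant per kilobase of each role group, any called gene of the list, and the 2 genes nearest in profile.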

Additional observations from a re-analysis of the deposited data

Results flagged for a closer look

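In groups of 4 libraries, the gap of the highest or lowest value to the next was set against Dixon's critical value. Of 58 groups checked, 7 passed it. The critical value flags about 1 in 20 of independent, normally distributed groups. The groups here share the same libraries, and the share over all tested genes was not computed, so the count is not read as an excess. Dvl3 had 26.4 CPM in Female replicate 4, against 16.3 to 17.8 CPM in the other Female libraries. Ror1, the minor paralog of Ror2, had 4.46 CPM in Male replicate 3, against 2.57 to 2.86 CPM in the other Male libraries, and 4.79 CPM in Female replicate 4, against 2.64 to 2.80 CPM in the other Female libraries. Wnt4 had 58.2 CPM in Male replicate 2, against 25.3 to 29.3 CPM in the other Male libraries. Pfn1, the actin-binding profilin, had 1303 CPM in Female replicate 4, against 1788 to 1823 CPM in the other Female libraries. Fuz, a ciliary planar polarity effector, had 7.21 CPM in Female replicate 1, against 9.58 to 9.91 CPM in the other Female libraries. Prickle4 had 0.0 CPM in Male replicate 3, which at 0 to 3 counts per library is within the limit that a count of 0 allows.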

How the results depend on the processing

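The genes called between the sexes numbered 6, from 5 to 9 under other settings and 6 to 7 with 1 library left out; none was one of the 10 genes. Same-numbered Male and Female libraries had deviations correlated at -0.469, -0.0213, -0.381 and 0.0932, which gave no sign of pairing by number. The check cannot exclude shared litters or batches, since a few outlying libraries weigh on these values. With the replicate block, 5 genes were called. Fold changes near 0 turned their sign: with library size alone, Prickle1 at -0.00651, Gpc3 at -0.012 and Fzd2 at -0.00499; Prickle2 at 0.00635 with a filter of 1 CPM, 0.00266 with RLE factors and 0.00379 with the replicate block. With 1 library left out, 31 of 224 fold changes turned their sign, and the range was Daam2 -0.0587 to 0.184, Dvl1 -0.146 to 0.176, Dvl2 -0.0368 to 0.00617, Fat1 -0.0635 to 0.266, Fjx1 -0.187 to 0.0697, Fzd2 -0.0133 to 0.0604, Gpc3 -0.0584 to 0.0701, Llgl2 -0.114 to 0.0369, Pfn1 -0.119 to 0.22, Prickle1 -0.00692 to 0.0564, Prickle2 -0.0824 to 0.122, Prickle3 -0.00951 to 0.152, Ror1 -0.266 to 0.197, Ror2 -0.122 to 0.0949, Scrib -0.129 to 0.0611, Vangl2 -0.0274 to 0.236, Wnt11 -0.211 to 0.0963 and Wnt4 -0.0836 to 0.392. Without correction for length, the log2 ratio was -0.37 for Prickle1 over Daam1, -0.000635 for Ror2 over Dvl2 and -0.39 for Dvl1 over Vangl1, and 17 comparisons passed. Without 1 library, 11 to 15 passed, and Vangl2 over Dvl1 ranged from -0.11 (without Male replicate 2) to 0.16. Member pairs that passed numbered 30 with library size alone, 5 by Spearman's rho, 5 relative to the length class, and 0 to 11 with 1 library left out; with library size alone Prickle1 with Dvl2 had r = 0.54. Marker relations that passed numbered 6 with library size alone, 4 by Spearman's rho, and 1 to 14 with 1 library left out, with 1 without Male replicate 2. The cause of these changes was not tested.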
